A study of Mus musculus with 12 samples.

Results

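Kinesins are motor proteins that walk along or take apart microtubules. The 42 kinesin genes described here were every row, of 23230 genes in the deposited table, whose symbol starts with Kif or Kifc and a digit. They were split by known role into 15 spindle kinesins, 17 transport kinesins and 10 others. RNA was measured in mouse oocytes that lacked both Zar1 and Zar2, called Zar1/2-null here, and in wild-type (WT) oocytes. ZAR1 and ZAR2 are RNA-binding proteins of the egg. All mice had a C57BL6/ICR hybrid background, and both genes were disrupted in the whole animal by small CRISPR/Cas9 deletions. Growing oocytes came from 13.5-day-old females by the labels, and the study's methods give a slightly younger age. Fully grown oocytes with an intact nucleus (germinal vesicle, GV) came from 21-day-old females 44 h after PMSG, a hormone that makes follicles grow. Ovulated oocytes (labelled MII) were taken 16 h after hCG, a hormone that triggers ovulation. The labels give no age or PMSG for these females. For superovulation, the study's methods give females 21 days old or slightly older, with PMSG 44 h before hCG. The MII groups were thus set by time of collection, and by the study's account many ovulated Zar1/2-null oocytes were still in meiosis I. Each of the 6 groups (3 stages, 2 genotypes) held 2 libraries of 10 pooled oocytes. The question for this gene family was whether the motors that build the spindle and the motors that carry cargo changed alike when Zar1/2 were lost.

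A fully grown oocyte makes no new mRNA until after fertilization. It builds its meiotic spindle from stored transcripts, many of which are then destroyed as the egg matures. Spindle kinesins push the poles apart, move and align chromosomes, trim microtubule ends and complete the division of the cell. Transport kinesins carry vesicles, mitochondria, RNA granules and ciliary parts.

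The values are FPKM, reads per length of transcript and sequencing depth, which the authors then scaled by ERCC, a synthetic RNA added in equal amount to each lysate. A scaled value therefore follows the amount of a transcript captured per 10 oocytes. Lost oocytes and less RNA per oocyte cannot be told apart. Capture was by oligo(dT), so the amount of an mRNA and the length of its poly(A) tail cannot be told apart either. By the study's account, tails of several mRNAs lengthened in maturing WT oocytes and failed to lengthen in Zar1/2-null oocytes. The table gives no read counts, so the counting error behind a value is unknown. ERCC factors, recovered from the digits of the table, were 1 in both WT growing libraries and lay from 0.533 to 0.862 in the other growing and GV libraries and from 0.225 to 0.283 in the MII libraries. The study lists unequal ERCC percentages for the WT growing libraries, so each replicate number appears scaled to its own WT growing library. The scale can thus differ between replicate 1 and replicate 2. The counts of called kinesins and partner genes below are also given without the ERCC factors. Zar2, under its table symbol Zar1l (chr5:151309630-151320739, mm9, minus strand), was at 639 and 644 FPKM in WT growing oocytes and at 17.5 and 13.2 FPKM in Zar1/2-null growing oocytes, and at 533 and 504 FPKM against 20.9 and 19.6 FPKM in GV oocytes. At MII it was at 3.13 and 4.72 FPKM in WT and 1.36 and 1.01 FPKM in Zar1/2-null oocytes. Zar1 was not low in every null library (190 and 194 FPKM against 83.6 and 72.4 FPKM in WT at MII), and a small deletion that leaves the transcript in place is no check of the label. All 9 oocyte markers examined were found, and their summed level was 2362 to 19404 FPKM per library. The 14 granulosa and cumulus markers summed to 4.28 to 26.8 FPKM and the 6 immune markers to 1.06 to 3.42 FPKM.

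Of the 42 kinesin genes, 26 reached 1 FPKM in at least 1 library and were tested (13 spindle, 10 transport, 3 others). The other 16 stayed under 1 FPKM everywhere, from Kif2b, listed at 0 in all 12 libraries, to Kif21b, whose highest value was 0.998 FPKM. Spindle kinesins made up most of the kinesin RNA. FPKM is a value per transcript length, so levels of different genes can be set side by side.

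Kif23, which bundles microtubules at the midzone of the dividing cell, had the highest mean over the 12 libraries (114 FPKM), followed by Kif22 (104 FPKM), a motor that sits on chromosome arms and pushes them outward. The third was not a spindle motor. Kif17, a kinesin known for carrying cargo in dendrites and cilia, averaged 72.9 FPKM. In WT growing oocytes the libraries of Kif23 and Kif22 overlapped, at 206 and 212 FPKM for Kif23 and 178 and 208 FPKM for Kif22. Kif17 was below both there, at 122 and 136 FPKM.

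Next came Kif2c, which takes apart microtubules at centromeres (92.3 and 108 FPKM in WT growing oocytes), Kif4, a motor of chromosome arms and the midzone (53.7 and 64.0 FPKM), and Kif18a, which damps chromosome movement at the metaphase plate (54.0 and 46.5 FPKM). The libraries of Kif4 and Kif18a overlapped at that stage, so they are not ordered. Kif20b, a motor of late cytokinesis, was at 35.6 and 32.1 FPKM, and Kif2a, a depolymerase of the spindle poles, at 29.9 and 26.5 FPKM. Kif20a, which brings Aurora B to the midzone, was at 25.5 and 30.8 FPKM and overlapped with Kif2a. Kif3a, a subunit of heterotrimeric kinesin-2, was the next transport motor at 19.5 and 17.9 FPKM. Kif11, which slides the poles apart and is the target of many spindle drugs, was at 16.6 and 15.6 FPKM, and Kif14, a midbody motor, at 12.5 and 12.7 FPKM. The remaining motors with a group mean of at least 5 FPKM were all transport kinesins: Kifc3 (7.98 and 8.67 FPKM), Kif5c (7.56 and 6.97 FPKM), Kif16b (7.18 and 6.74 FPKM) and Kif5b (7.55 and 5.89 FPKM). The libraries of Kif5c, Kif16b and Kif5b overlapped, and those of Kifc3 lay above them.

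Kifc1, a minus-end motor of the spindle pole, reached no more than 2.09 FPKM. Its near copy Kifc5b stayed under 1 FPKM, as did Kif4-ps, a relative of Kif4, and uniquely mapped reads may be split or lost between such pairs, so these low values are uncertain.

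**Figure D1:**
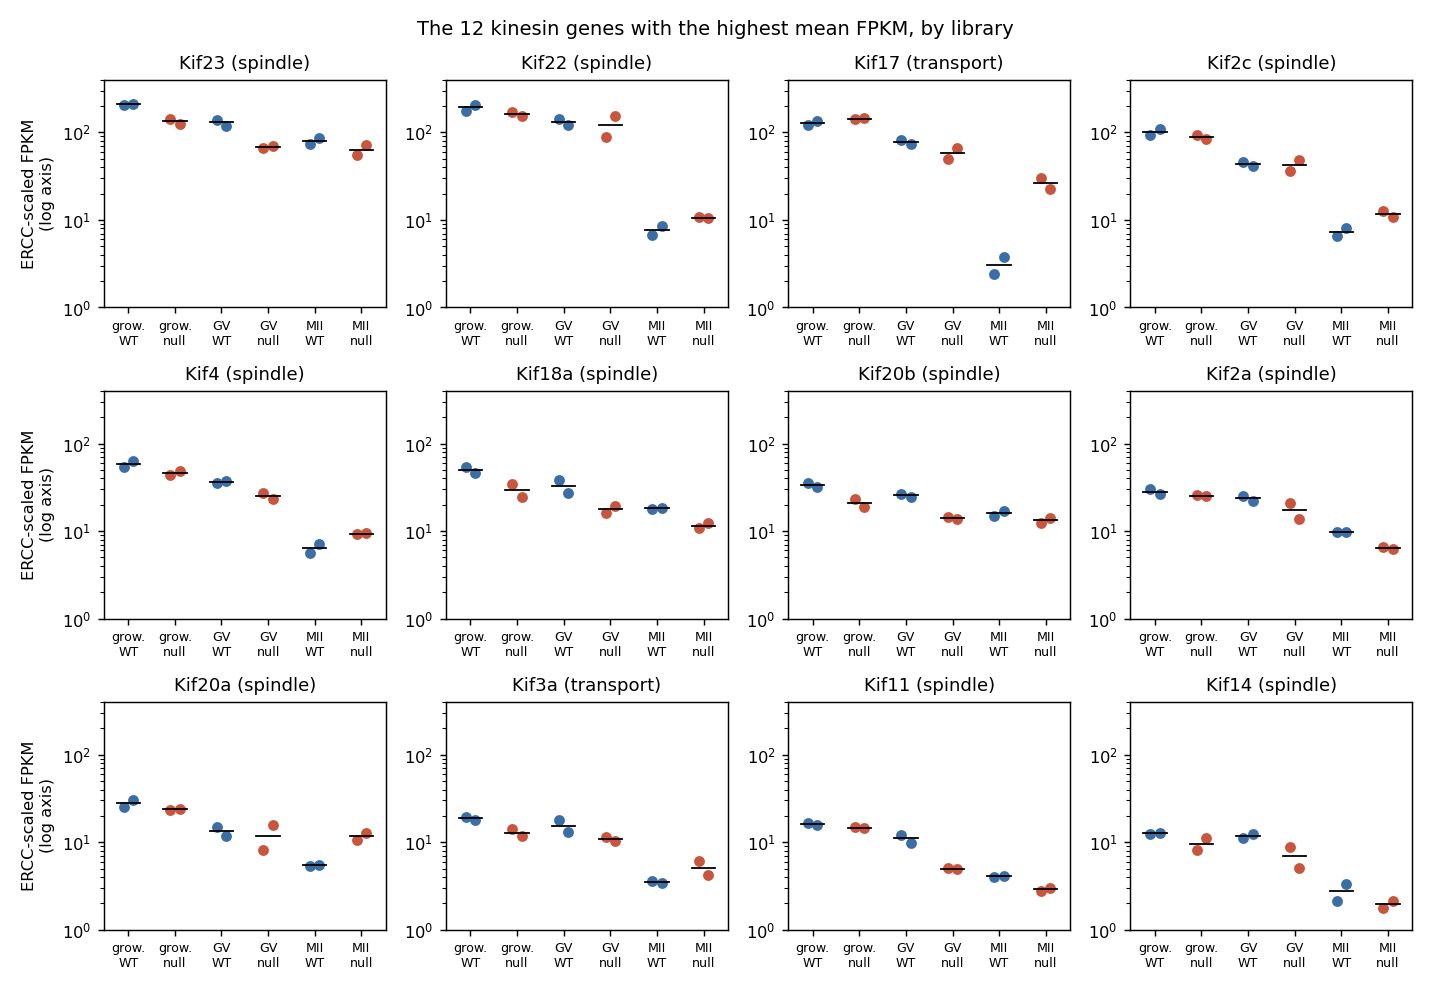
ERCC-scaled FPKM on a log axis of the 12 kinesin genes with the highest mean over all libraries, in WT (blue) and Zar1/2-null (red) growing (grow.), GV and MII oocytes, with 1 point per library and a line at the mean of 2. Kif17 falls from 81.6 and 73.1 FPKM at GV to 2.40 and 3.73 FPKM at MII in WT oocytes, and stays at 30.1 and 22.4 FPKM in Zar1/2-null oocytes.

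The end of a stored mRNA carries the signals that lengthen or shorten its poly(A) tail in the maturing oocyte. These ends are shown here because the libraries were primed with oligo(dT), which needs a tail. A poly(A) signal (AATAAA or ATTAAA) marks the cleavage site, and a cytoplasmic polyadenylation element (CPE, searched as TTTTAT or TTTTAA) near it marks an mRNA that can be readenylated during maturation. Both were searched on the transcript strand in the last 100 bases of the coding transcript that reached furthest 3′ in the GENCODE M1 annotation of mm9, and a match that shared bases with another was still counted. Each line gives 30 bases at or near the end, 5′ to 3′, with every match inside them in capitals. Adjoining or overlapping matches form 1 run of capitals, as in Kif11 and Kif4.
Kif22 (chr7:134171246-134171275, minus strand): gacgtgttgtgtaaatacagtTTTTATtcc
Kif18a (chr2:109181875-109181904, plus strand): acttggtatATTAAAgatgtagaTTTTAAa
Kif20b (chr19:35050191-35050220, plus strand): tatataaTTTTAAttcAATAAAtatatcag
Kif11 (chr19:37496320-37496349, plus strand): aattTTTTAAATTAAAttaTTTTAAttttt
Kif4 (chrX:97922508-97922537, plus strand): aTTTTAAaaatgttaagaaAATAAATAAAc
Kif23 (chr9:61765092-61765121, minus strand): caaaacaactgaAATAAAaaggcactaaga
Kif2c (chr4:116832248-116832277, minus strand): gctgtacctaacAATAAAgaaagaagaaaa
Kif17 (chr4:137857853-137857882, plus strand): cagaaagctgcccAATAAActgccttttgg

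The first 5 of these ends, all of spindle motors, held a CPE within the last 100 bases, and the last 3 did not, and Kif22 had no poly(A) signal in that stretch. Among the tested kinesins, 6 of 13 spindle motors and 2 of 9 transport motors with an annotated 3′ UTR held a CPE, against 29.7% of the 10609 tested genes with such a transcript. A poly(A) signal was found in 11 and 8 of them, against 80.8% of all. The 3′ UTRs also differed in length, with a median of 555 bases in the spindle motors, 2724 bases in the transport motors and 905 bases over all genes. These are descriptions of the annotated sequence.

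In growing oocytes, 9 of 26 tested kinesins were lower in Zar1/2-null than in WT libraries, and none was higher, in limma with Benjamini-Hochberg adjustment over all 11502 genes tested. The same test called 24.4% of all genes lower and 10.6% higher. At an unadjusted p under 0.05, 11 kinesins were lower and 1 was higher. The kinesins that fell were 3 spindle motors (Kif23, Kif18a, Kif20b), 3 transport motors (Kif5b, Kif5c, Kif1b) and the 3 tested others (Kif24, Kif27, Kif9).

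Kif5c and Kif5b are conventional kinesin heavy chains, which haul vesicles and mitochondria. Kif5c, the kinesin with the largest difference at this stage, was at 7.56 and 6.97 FPKM in WT and 3.24 and 2.89 FPKM in Zar1/2-null growing oocytes, a log2 fold change (of FPKM + 1, as throughout) of -1.02 ± 0.15 (SE, adjusted p = 0.000413, limma). Kif5b was at 7.55 and 5.89 FPKM against 3.99 and 3.31 FPKM (log2 fold change -0.73 ± 0.16, adjusted p = 0.00575). In neither gene did the genotypes overlap.

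Kif1b, a carrier of mitochondria and vesicle precursors, was lower by less, at 4.10 and 3.66 FPKM against 2.34 and 2.58 FPKM (adjusted p = 0.0478). Among the spindle motors, Kif18a went from 54.0 and 46.5 FPKM to 34.8 and 24.7 FPKM (log2 fold change -0.75 ± 0.21, adjusted p = 0.0163). Kif20b went from 35.6 and 32.1 FPKM to 23.1 and 18.9 FPKM (log2 fold change -0.67 ± 0.15, adjusted p = 0.00580). Both libraries of the null were below both of the WT in each of these motors. Kif23 stood at 206 and 212 FPKM in WT and 144 and 125 FPKM in Zar1/2-null oocytes (log2 fold change -0.64 ± 0.17, adjusted p = 0.0128).

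The others were motors linked to cilia and centrioles at low levels. Kif24, which acts at the centriole cap, was at 4.64 and 4.72 FPKM against 2.58 and 3.29 FPKM, Kif9, a motor of the sperm flagellum, at 3.96 and 5.68 FPKM against 3.38 and 2.59 FPKM, and Kif27, a relative of the hedgehog regulator Kif7, at 0.878 and 1.09 FPKM against 0.409 and 0.645 FPKM. Adjusted p-values were 0.0331, 0.0434 and 0.0426 (limma). Kif27 passed the filter only through WT growing replicate 2, a library of the group where it was higher. It stays in the counts here and below, but its calls are no support for a difference. The higher-expressed Kif17 (142 and 145 FPKM in the null), Kif22 (171 and 154 FPKM) and Kif2c (92.9 and 84.6 FPKM) did not pass the test at this stage, with log2 fold changes of 0.16 ± 0.21, -0.25 ± 0.23 and -0.17 ± 0.18. No kinesin passed the study's 3-fold rule in growing oocytes, a rule that 3.54% of genes passed downward and 0.982% upward, since the largest fold was 2.37, for Kif5c.

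Without the ERCC factors 2 kinesins (and 11.7% of all genes) were called lower, Kif5c and Kif5b, at log2 fold changes of -0.80 and -0.50. The count also fell to 2, 4 and 3 when WT replicate 1, WT replicate 2 or Zar1/2-null replicate 2 was left out. Kif5c stayed called under each of its 18 alternative settings. Kif18a, Kif20b, Kif23 and Kif5b lost their calls without WT replicate 1 or null replicate 2 (Kif23 also without WT replicate 2), Kif24 without WT replicate 1, WT replicate 2 or null replicate 1, and Kif1b, Kif9 and Kif27 under 15 of 18, 13 of 18 and 12 of 16 alternatives. The granulosa and cumulus markers were higher in the WT growing libraries (summed 23.5 to 26.8 FPKM, mainly the aromatase Cyp19a1, with Amh at 0) than in the null (6.21 to 10.99 FPKM), and their part in these differences was not tested.

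In fully grown GV oocytes, 15 of 26 kinesins were lower in Zar1/2-null than in WT libraries, and none was higher by limma, adjusted or at an unadjusted p under 0.05 (19 were lower unadjusted). The test called 40.6% of all genes lower and 2.83% higher. The 15 were 7 spindle motors, 6 transport motors and 2 others, and 8 of them were also among the 9 lower in growing oocytes. The share of all genes lower at both stages was not counted, so this overlap is not read as particular to kinesins. In 23 of 26 kinesins both null libraries lay below both WT libraries, as they did in 63.6% of all genes tested.

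Kif1b showed the largest difference. It was at 5.50 and 4.46 FPKM in WT and 2.08 and 1.15 FPKM in Zar1/2-null GV oocytes (log2 fold change -1.21 ± 0.17, adjusted p = 0.000387, limma), and at a 3.08-fold difference of means it was the 1 kinesin to pass the 3-fold rule (4.2% of genes passed it downward and 0.461% upward). Kif11, the pole-separating motor, was at 12.2 and 9.88 FPKM against 5.01 and 4.99 FPKM (log2 fold change -0.999 ± 0.13, adjusted p = 0.000260). In growing oocytes Kif11 had not passed the test, at 16.6 and 15.6 FPKM in WT against 14.8 and 14.5 FPKM in the null. Kif3b, the partner of Kif3a in kinesin-2, was at 2.19 and 2.13 FPKM against 0.803 and 0.547 FPKM (log2 fold change -0.92 ± 0.12, adjusted p = 0.000205). Kif3a itself did not pass, at 17.8 and 13.01 FPKM against 11.5 and 10.4 FPKM (adjusted p = 0.0769).

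Kif23, Kif20b and Kif14, which act in the dividing cell's midzone and midbody, were lower in the null at this stage. Kif23 was at 140.4 and 119.6 FPKM in WT and 67.1 and 69.8 FPKM in Zar1/2-null oocytes (log2 fold change -0.91 ± 0.17, adjusted p = 0.00154, limma). Kif20b was at 26.8 and 24.6 FPKM against 14.5 and 13.9 FPKM (log2 fold change -0.81 ± 0.15, adjusted p = 0.00165), and Kif14 at 11.2 and 12.5 FPKM against 8.89 and 5.01 FPKM (adjusted p = 0.0285). Kif20a, which also acts there, did not pass. Its null libraries differed by more than its groups, at 8.11 and 15.5 FPKM against 14.8 and 11.8 FPKM in WT.

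Among the chromosome motors, Kif18a was at 38.8 and 26.9 FPKM against 16.2 and 19.4 FPKM (adjusted p = 0.00838) and Kif4 at 34.97 and 37.4 FPKM against 27.3 and 23.04 FPKM (adjusted p = 0.0240, with a log2 fold change of -0.51 that became 0.065 when libraries were scaled to a common median). Kif22 and Kif2c overlapped between genotypes, at 88.8 and 155 FPKM and at 36.2 and 49.0 FPKM in the null against 141 and 120.4 FPKM and 46.3 and 41.0 FPKM in WT. The log2 fold change of Kif2c had a 95% confidence interval of -0.45 to 0.35. Kif2a had a log2 fold change of -0.45 ± 0.18 (adjusted p = 0.0646).

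Of the transport motors, Kif16b, a motor of early endosomes, was at 6.91 and 5.27 FPKM in WT and 3.49 and 3.53 FPKM in the null (adjusted p = 0.00438). Kif5b and Kif5c had log2 fold changes of -0.52 ± 0.16 and -0.50 ± 0.15 and Kif13b, another vesicle motor, of -0.44 ± 0.14 (adjusted p = 0.0254, 0.0187 and 0.0256). Kif17 was at 81.6 and 73.1 FPKM against 50.1 and 66.1 FPKM and Kifc3 at 9.56 and 9.27 FPKM against 7.64 and 6.95 FPKM. Neither passed (adjusted p = 0.120 and 0.135). The low motors Kif18b, Kif24 and Kif27 were lower by 0.44, 0.66 and 0.50 on the log2 scale.

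The median log2 fold change of all genes at GV was -0.38 with the ERCC factors and -0.03 without them. Without the factors 4 kinesins (and 13.1% of all genes) were called lower: Kif1b (-0.97), Kif3b (-0.80), Kif11 (-0.63) and Kif21b, which did not reach 1 FPKM with the factors. Without them Kif21b passed the filter only through WT GV replicate 2, a library of the group where it was higher. It stays in the count, but its call is no support for a difference. With each library scaled to 1 common median in place of ERCC, Kif2c was called higher, as were 9.11% of all genes. Kif1b, Kif3b and Kif11 stayed called under each of their 18 alternative settings, and Kif16b, Kif20b and Kif23 in all that left out 1 library. Without WT GV replicate 1 the count was 6, and Kif18a, Kif14, Kif4, Kif5b, Kif5c, Kif13b, Kif18b, Kif24 and Kif27 lost their calls. Kif14 and Kif4 also lost them without WT GV replicate 2 or null GV replicate 2, Kif5c and Kif24 without null GV replicate 2, Kif18a without null GV replicate 1, and Kif5b and Kif13b without either null library. Kif18b was lost without any 1 of the GV or MII libraries.

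In ovulated oocytes, 4 of 26 kinesins were higher in Zar1/2-null than in WT libraries and 4 were lower. Of all genes, the test called 21.5% higher and 10.3% lower. The kinesins that were higher were Kif17, Kif20a, Kif2c and Kif4, and those that were lower were Kif18a, Kif2a, Kif1b and Kif5b.

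Kif17 (chr4:137806350-137857882, mm9) stood apart from the rest. It was at 2.40 and 3.73 FPKM in WT and 30.1 and 22.4 FPKM in Zar1/2-null MII oocytes, an 8.58-fold difference of means and a log2 fold change of 2.75 ± 0.21 (adjusted p = 1.25e-06, limma). It was the 1 kinesin to pass the 3-fold rule, which 7.49% of genes passed upward and 1.32% downward. Without the ERCC factors its log2 fold change was 2.79, and it was called under all 18 alternative settings.

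The other motors that were higher belong to the spindle. Kif20a was at 5.35 and 5.49 FPKM in WT against 10.7 and 12.6 FPKM in the null (2.15-fold, log2 fold change 0.98 ± 0.24, adjusted p = 0.00857). Kif2c was at 6.49 and 8.14 FPKM against 12.5 and 10.9 FPKM (1.60-fold, adjusted p = 0.0233), and Kif4 at 5.69 and 7.11 FPKM against 9.14 and 9.56 FPKM (1.46-fold, adjusted p = 0.0357). The genotypes did not overlap in any of them. Kif22 had the same order of libraries, at 6.81 and 8.43 FPKM against 10.8 and 10.4 FPKM, and did not pass (log2 fold change 0.43 ± 0.23, adjusted p = 0.190).

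Of the 4 that were lower, 3 had also been called lower at the earlier stages. Kif1b was at 2.34 and 2.36 FPKM in WT and 0.638 and 0.908 FPKM in Zar1/2-null oocytes (2.35-fold lower, log2 fold change -0.92 ± 0.17, adjusted p = 0.00175). Kif18a was at 17.9 and 18.4 FPKM against 10.8 and 12.3 FPKM (adjusted p = 0.0423), and Kif5b at 2.90 and 2.74 FPKM against 1.62 FPKM in both null libraries (adjusted p = 0.0249). These 3 genes were lower in the null at all 3 stages, and the share of all genes lower at all 3 was not counted. Kif2a, at 9.68 and 9.87 FPKM against 6.57 and 6.21 FPKM (adjusted p = 0.0410), was called at this stage alone, but its log2 fold change was close at GV (-0.45 ± 0.18) and MII (-0.54 ± 0.18).

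Kif23, the most abundant kinesin, no longer passed, at 72.9 and 85.5 FPKM in WT against 55.9 and 71.3 FPKM in the null (log2 fold change -0.32 ± 0.17, adjusted p = 0.185). Without the ERCC factors 3 kinesins were called higher at MII (Kif17, Kif20a, Kif2c) and 10 lower, against 23.9% and 22.7% of all genes. The 10 were Kif11, Kif15, Kif18a, Kif1b, Kif20b, Kif23, Kif2a, Kif3b, Kif5b and Kif5c. Kif23 then had a log2 fold change of -0.56 at MII (adjusted p = 0.0124, limma). Without the factors it was not called in growing (-0.35) or GV oocytes (-0.46). Kif2c lost its call without WT MII replicate 1 or null MII replicate 1, Kif4 without either of these, null MII replicate 2 or the ERCC factors, and Kif20a without null MII replicate 2. Kif1b was the 1 kinesin called lower when any 1 of the 4 MII libraries was left out, and the count was 2 without WT growing replicate 1 or 2. Kif5b and Kif18a thus lost their calls without any 1 MII library, Kif18a also without either WT growing library, and Kif2a under 10 of 18 alternatives.

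**Figure D2:**
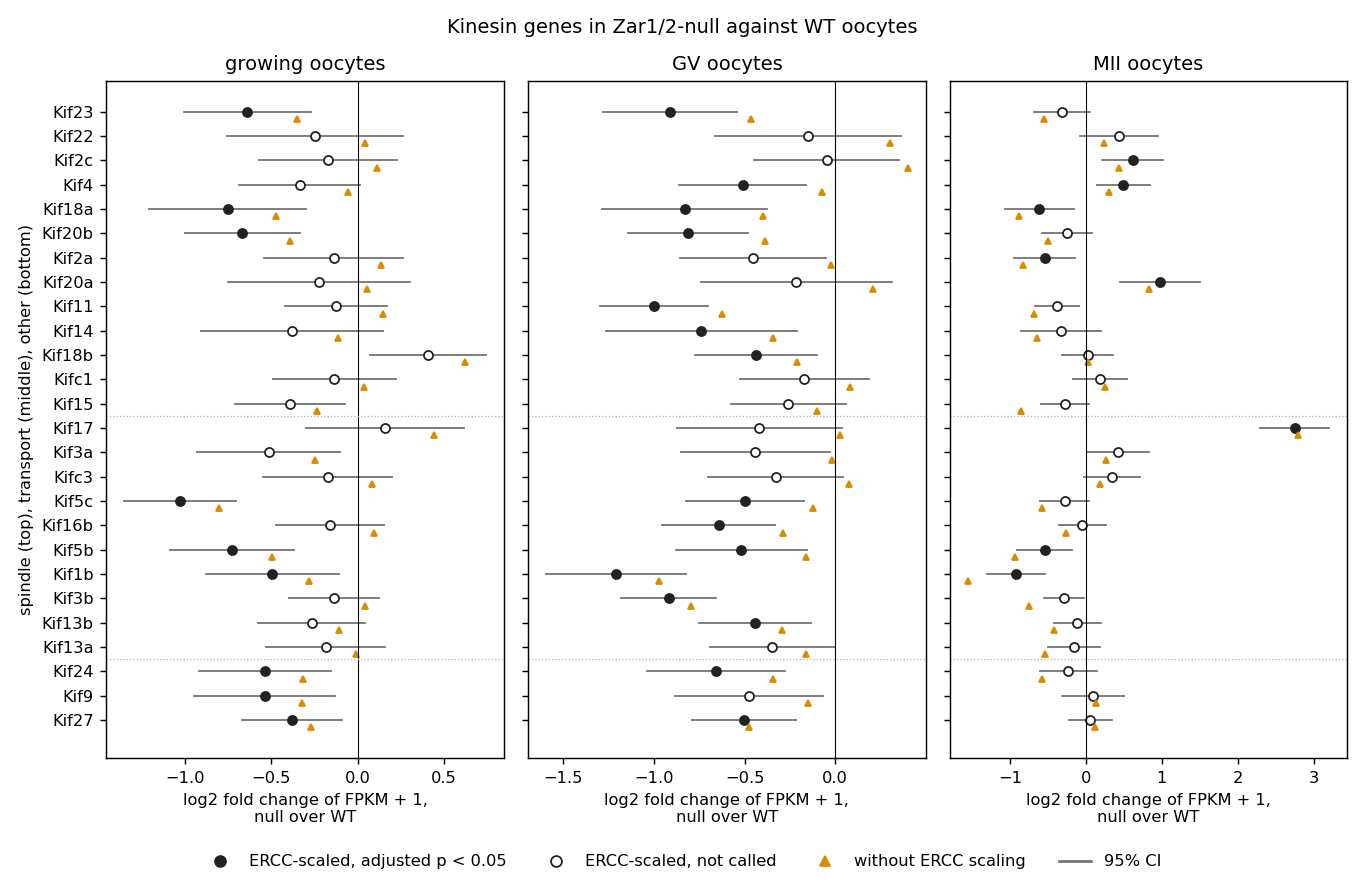
Log2 fold change of FPKM + 1 in Zar1/2-null over WT oocytes for the 26 tested kinesins at each stage, with 95% confidence intervals. Filled points passed limma at an adjusted p under 0.05, open points did not, and triangles give the value without ERCC factors, which lies to the right of the scaled value in growing and GV oocytes and changes sign in some genes. At MII, Kif17 lies at 2.75 and every other kinesin at or below 0.98.

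The normal course of these transcripts was read from the WT libraries alone. With ERCC scaling, 8 of 26 kinesins fell from growing to GV oocytes and none rose by limma (10 lower and 0 higher at an unadjusted p under 0.05), against 28.7% of all genes lower and 2.77% higher. Of these, 7 were spindle motors (Kif2c, Kif20a, Kif23, Kif4, Kif15, Kif18a, Kif11) and 1 was Kif17. Kif2c fell most, from 92.3 and 108 FPKM to 46.3 and 41.0 FPKM (2.30-fold, log2 fold change -1.18 ± 0.18, adjusted p = 0.00185). Kif20a fell 2.11-fold. Kif17 fell from 122 and 136 FPKM to 81.6 and 73.1 FPKM (1.66-fold, adjusted p = 0.0231). Without the ERCC factors Kif2c was the 1 kinesin still called lower (log2 fold change -0.80, adjusted p = 0.0150, limma), as were 3% of all genes. The count was 1 without WT growing replicate 2 or WT GV replicate 2 and 5 without WT growing replicate 1, and Kif17 lost its call without each of these.

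From GV to MII all 26 tested kinesins fell in WT oocytes with ERCC scaling, as did 93.4% of genes (0.104% rose). No kinesin was higher, at an unadjusted p under 0.05 either. Loss of RNA and a shorter poly(A) tail cannot be told apart here. How far each motor fell differed widely. Kif17 fell 25.3-fold, from 81.6 and 73.1 FPKM to 2.40 and 3.73 FPKM (log2 fold change -4.29 ± 0.21, adjusted p = 4.58e-09). Kif22 fell 17.2-fold, from 141 and 120.4 FPKM to 6.81 and 8.43 FPKM (log2 fold change -3.94 ± 0.23, adjusted p = 2.24e-08). With means under 1 FPKM set to 1 FPKM, these were the 2 kinesins that passed the study's rule of a 10-fold loss, which 15.7% of genes passed. That floor limits the fold of low members such as Kif9, at 4.42 and 3.01 FPKM in GV and 0.172 and 0.142 FPKM in MII oocytes, and Kif18b, at 1.74 and 1.72 FPKM and 0.0419 and 0.116 FPKM.

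Behind them came Kif2c (5.97-fold), Kif4 (5.66-fold), Kif16b (5.54-fold), Kif3a (4.36-fold), Kif14 (4.31-fold), Kif24 (4.10-fold), Kif9 (3.71-fold) and Kifc3 (3.27-fold), with the MII means of Kif24 and Kif9, which were lower, set to 1 FPKM. At the other end, Kif23 fell 1.64-fold, Kif20b 1.61-fold, Kif18a 1.81-fold and Kif5b 1.86-fold. The median gene fell by 1.28 on the log2 scale, which is more than the fall of Kif23 (0.71), Kif20b (0.65), Kif18a (0.80) and Kif5b (0.70). The mean of Kif23 accordingly moved from the 93.05 percentile of tested genes at GV to the 97.92 percentile at MII, while Kif17 moved from 89.05 to 68.5 and Kif22 from 93.11 to 82.

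The direction of the less affected motors rested on the ERCC factors. Without them the median gene fell by 0.39, and 8 kinesins fell (Kif17, Kif22, Kif9, Kif18b, Kif2c, Kif4, Kif16b, Kif27) while 6 rose (Kif20b, Kif23, Kif18a, Kif5b, Kif21a, Kif1b). Among all genes, 46.1% fell and 19.2% rose by the same test. The log2 fold change was then -2.84 for Kif17, -2.32 for Kif22, 1.05 for Kif20b and 1.03 for Kif23. The steep fall of Kif17 and Kif22 was called under each of 17 alternative settings.

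In Zar1/2-null oocytes, 21 of 26 kinesins were lower at MII than at GV and none was higher (22 and 0 at an unadjusted p under 0.05), against 68.7% of all genes lower and 0.209% higher. Kif22 was the 1 kinesin with a loss of more than 10-fold (11.5-fold), a mark that 6.66% of genes passed. Its null libraries went from 88.8 and 155 FPKM to 10.8 and 10.4 FPKM. Kif17, in contrast to its 25.3-fold fall in WT, went from 50.1 and 66.1 FPKM to 30.1 and 22.4 FPKM, a 2.21-fold fall (log2 fold change -1.12 ± 0.21, adjusted p = 0.000517, limma). Without ERCC factors 8 kinesins fell in the null and 5 rose (Kif18a, Kif20a, Kif20b, Kif21a, Kif23), against 39.3% and 18.8% of all genes. Kif17 then had a log2 fold change of -0.085 ± 0.19 and did not pass, while Kif22 still fell by 2.38.

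The difference between genotypes in this change was then tested directly. It was positive, meaning a smaller fall in the null, in 9 kinesins, and none was negative (12 and 0 at an unadjusted p under 0.05), against 33.9% of genes positive and 0.643% negative. Kif17 had the largest, 3.17 ± 0.29 on the log2 scale (adjusted p = 1.12e-05, limma). The others were the spindle motors Kif20a (1.19 ± 0.34), Kif4 (1.00 ± 0.23) and Kif11 (0.62 ± 0.19), the transport motors Kif3a, Kifc3, Kif3b and Kif16b, and Kif27. For Kif22 the difference was 0.58 ± 0.33 (95% confidence interval -0.14 to 1.31, adjusted p = 0.183), so a fall alike in both genotypes and a difference the size of that of Kif4 both lie within its interval.

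The median difference over all genes was 0.48 with ERCC factors and 0.03 without them. Without the factors the difference was called positive in Kif17 alone (2.76, adjusted p = 1.51e-05) and negative in Kif5b (-0.77, adjusted p = 0.0402, limma). The same test called 14.3% of all genes positive and 6.17% negative. Kif17 was called under each of its 17 alternatives. Kif16b and Kifc3 were called under 4 and 3 of 17. At a pseudocount of 0.1 FPKM Kif16b, Kifc3 and Kif3b lost their calls, and without a filter Kif16b, Kifc3, Kif3a and Kif20a did. Kif4 kept its call when any 1 library was left out. The count of positive kinesins was 2 without WT MII replicate 1, 4 without WT MII replicate 2, 3 without null MII replicate 2 and 3 without WT GV replicate 1.

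**Figure D3:**
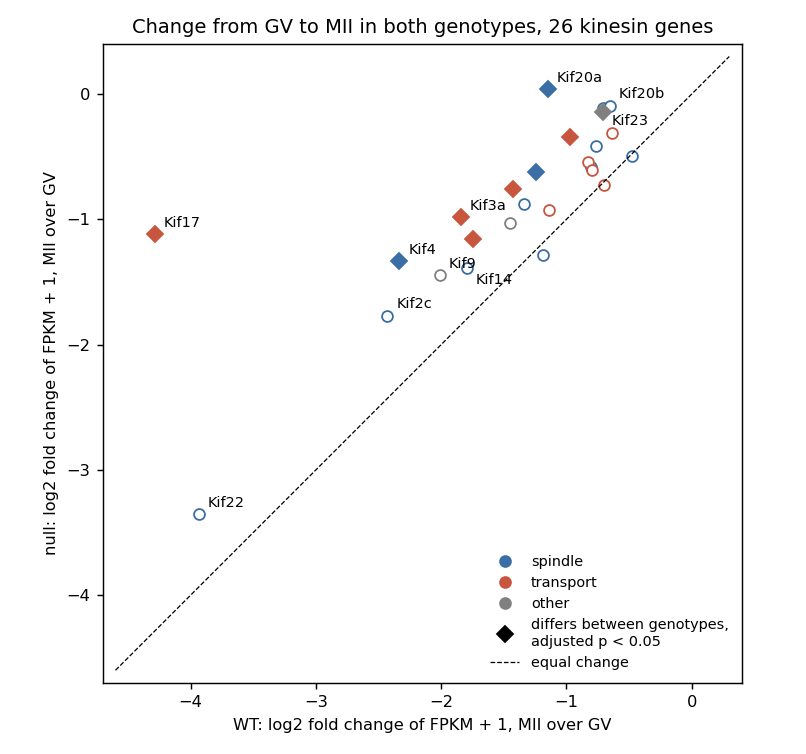
Change from GV to MII of the 26 tested kinesins, as log2 fold change of FPKM + 1 with ERCC scaling, in WT (horizontal) against Zar1/2-null oocytes (vertical), with a dashed line where both are equal. Filled diamonds mark the 9 genes whose change differed between genotypes (limma, adjusted p under 0.05), of which Kif17 keeps that call without ERCC factors. Kif17 lies at -4.29 and -1.12 and Kif22 at -3.94 and -3.35.

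The medians of spindle and transport kinesins lay close in each comparison of genotypes. The median log2 fold change in the null was -0.25 for the 13 spindle and -0.23 for the 10 transport kinesins in growing oocytes, against -0.16 over all genes. In GV oocytes the medians were -0.45 and -0.47, against -0.38, and in MII oocytes -0.25 and -0.14, against 0.06. The difference between the groups of motors was -0.02, 0.02 and -0.11, beside an SD of 0.13 between replicate libraries (pooled over 6 groups) in the spindle minus transport difference of median log2 levels. In growing oocytes without ERCC factors the spindle median was 0.04 and the transport median -0.06. In WT growth the medians were further apart, at -0.56 for spindle and -0.23 for transport kinesins with ERCC factors and -0.17 and 0.17 without them. In WT maturation the difference was -0.13 with the factors and 0.17 without them. Over the kinesins with a mean across all 12 libraries of at least 5 FPKM it was -0.70 at MII and 0.62 in WT maturation. Kif17, Kif3a and Kifc3 were the only transport motors in that set, so the size of this difference rested on which low members were counted.

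The summed kinesin level fell from 902 and 968 FPKM in WT growing oocytes to 648 and 560 FPKM at GV and 167 and 191 FPKM at MII. In Zar1/2-null oocytes it was 777 and 731, 389 and 475, and 181 and 192 FPKM. A share within a library does not depend on the ERCC factor. Spindle motors held 73.6% to 78.9% of the kinesin FPKM in every growing and GV library. At MII they held 87.9% and 88.3% in WT and 73.9% and 79.8% in Zar1/2-null oocytes, 11.2 percentage points less on average.

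The gap was not seen without Kif17, an alternative chosen after seeing the data. With it left out, the MII difference was -0.11 percentage points, at 89.2% and 90.0% in WT and 88.7% and 90.3% in the null. With Kif23, the most abundant spindle motor, left out it was -13.5 points. Kif17 made up 12.5% and 17.9% of the transport kinesin FPKM in WT at MII, against 65.5% and 59.1% in the null, and 57.7% to 78.4% in all growing and GV libraries. With 2 libraries against 2, an exact two-sided permutation test cannot give a p below 0.333, so the shares are given without one.

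**Figure D4:**
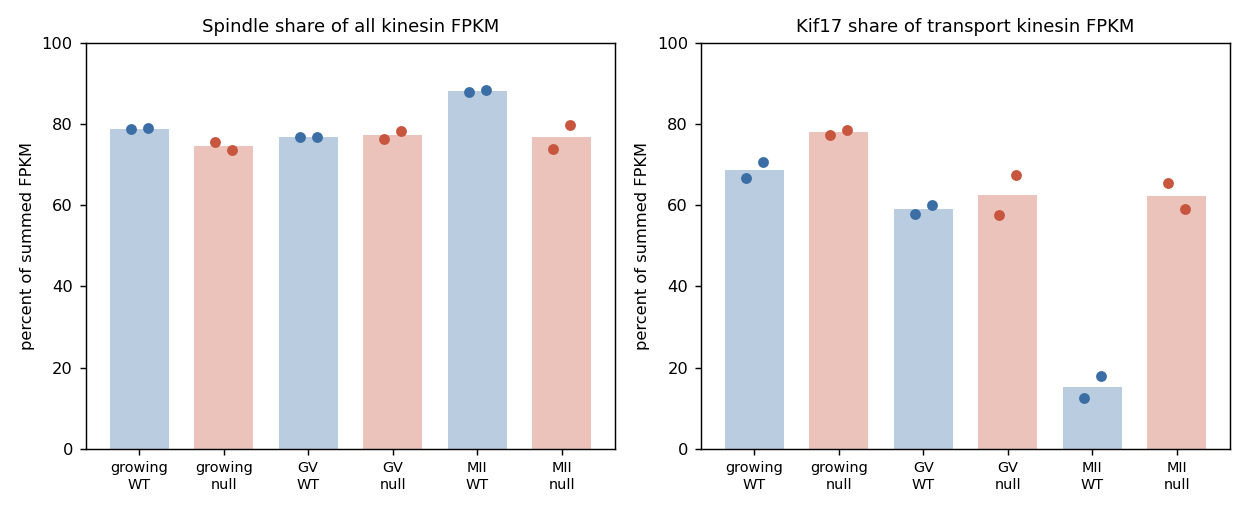
Percent of summed FPKM within each library (points, with bars at the mean of 2) for spindle motors among all kinesins (left) and Kif17 among transport kinesins (right), in WT (blue) and Zar1/2-null (red) oocytes. In WT MII oocytes the spindle share is 87.9% and 88.3% and the Kif17 share 12.5% and 17.9%, while in the null they are 73.9% and 79.8% and 65.5% and 59.1%.

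Proteins that work with these motors were examined next, as 3 lists. Of all genes tested, 10.6% were called higher and 24.4% lower in the null in growing oocytes. The shares were 2.83% and 40.6% at GV and 21.5% and 10.3% at MII. Without ERCC factors they were 14.4% and 11.7%, 7.26% and 13.1%, and 23.9% and 22.7%. These shares stand beside the counts of all 3 lists. Kinesins bind cargo through light chains and adaptors. Of 13 such genes, 9 were tested. In growing oocytes 4 were higher in the null and 2 lower, in GV oocytes 0 and 4, and at MII 1 and 0, against 4 and 0, 1 and 0, and 1 and 1 without ERCC factors. Those higher in growing oocytes were Kifap3, the light chains Klc3 (log2 fold change 0.85) and Klc4 (0.41) and the adaptor Mapk8ip3 (0.71), and those lower were Fez2 (-0.87) and Trak2 (-0.45). At GV, Fez2 (-0.83), Klc2 (-0.35), Klc1 and the mitochondrial adaptor Trak1 (-0.76) were lower. Without ERCC factors none of these 4, nor Fez2 and Trak2 in growing oocytes, was called lower. Kifap3, which links Kif3a and Kif3b to cargo, was at 1.39 and 0.875 FPKM in WT and 3.48 and 4.18 FPKM in Zar1/2-null growing oocytes (log2 fold change 1.18 ± 0.14, adjusted p = 0.000114, limma). Kif3a and Kif3b had log2 fold changes of -0.52 ± 0.19 and -0.14 ± 0.12 there and did not pass. Klc1, the light chain of Kif5 motors, was lower in GV oocytes (log2 fold change -0.69) and higher at MII (0.52), and without ERCC factors the first call was lost (-0.31).

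All 14 spindle partners were tested. In the null, 2 were higher and 8 lower in growing oocytes, 1 higher and 9 lower at GV, and 3 higher and 2 lower at MII. Without ERCC factors these counts were 2 and 2, 1 and 2, and 3 and 6. All genes were lower in 24.4%, 40.6% and 10.3% with the factors and 11.7%, 13.1% and 22.7% without them. Racgap1, which joins Kif23 in the centralspindlin complex, was lower at each stage with ERCC factors, as 57.8 and 58.7 FPKM against 34.5 and 33.0 FPKM in growing, 43.3 and 36.0 FPKM against 18.9 and 22.7 FPKM in GV and 12.6 and 12.9 FPKM against 8.14 and 8.23 FPKM in MII oocytes. Its log2 fold changes without the factors were -0.49, -0.47 and -0.86. Ect2, which centralspindlin recruits to drive the cleavage furrow, was at 54.0 and 36.9 FPKM against 13.1 and 14.6 FPKM in GV oocytes (log2 fold change -1.62 ± 0.18, adjusted p = 7.83e-05). At MII it was at 18.9 and 18.3 FPKM against 2.76 and 2.40 FPKM (log2 fold change -2.45 ± 0.18, adjusted p = 9.48e-07). In growing oocytes it did not pass (-0.27 ± 0.18).

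The chromosomal passengers, which Kif20a carries to the midzone, went separate ways. Aurkb was higher in the null at each stage, from 9.55 and 11.4 FPKM to 18.2 and 19.8 FPKM in growing, 7.40 and 7.95 FPKM to 9.65 and 15.0 FPKM in GV and 0.824 and 1.33 FPKM to 6.17 and 5.52 FPKM in MII oocytes. Birc5, which encodes survivin, was lower in growing and GV oocytes (log2 fold changes -0.51 and -0.50) and higher at MII, where it stood at 57.4 and 51.9 FPKM in WT and 627 and 501 FPKM in Zar1/2-null oocytes (3.34 ± 0.17, adjusted p = 5.14e-08). The earlier differences were smaller without ERCC factors (-0.22 and -0.05). Aurkc, the meiotic Aurora kinase, was lower in growing (-1.32) and GV oocytes (-0.71), and Incenp was lower in GV oocytes (-0.62). Without ERCC factors Aurkc kept its call in growing oocytes (-1.04) and lost it at GV (-0.26), as did Incenp (-0.21).

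Among the remaining partners, Spag5 was higher in growing oocytes (0.45) and at MII (1.04 ± 0.13). Tpx2, Cenpe and Hmmr were lower in growing (-0.50, -0.57 and -0.95) and GV oocytes (-0.59, -0.40 and -1.15), Nusap1 and Prc1 in growing oocytes (-0.66 and -0.49) and Numa1 in GV oocytes (-0.68). None of these 9 calls of Tpx2, Cenpe, Hmmr, Nusap1, Prc1 and Numa1 held without ERCC factors, where the values were -0.22, -0.30 and -0.67 for the first 3 in growing oocytes, -0.15, 0.037 and -0.72 at GV, and -0.37, -0.21 and -0.34 for the others. Tpx2 was instead called lower at MII without the factors (-0.38, adjusted p = 0.0459, limma). The study, which used a 3-fold rule, describes Tpx2 mRNA as comparable between the genotypes at all stages. Dynein is the motor that walks the other way. Of 10 genes of dynein and its helpers 9 were tested, with 3 higher and 1 lower in growing oocytes, 0 and 1 at GV, and 1 and 2 at MII (3 and 1, 0 and 1, and 2 and 2 without ERCC factors). The intermediate chain Dync1i2 was lower at each stage (-1.33, -0.93 and -1.01), and Pafah1b1 at MII (-0.82). Dctn3, a dynactin subunit, was at 5.39 and 4.02 FPKM in WT and 37.0 and 28.2 FPKM in Zar1/2-null MII oocytes (2.56 ± 0.17, adjusted p = 3.91e-07). Dctn1, Dctn2 and Dync1li1 were higher in growing oocytes (0.75, 0.60 and 0.78).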

How the data were processed

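Smart-seq2 libraries of 10 oocytes each were examined, 2 in each of 6 groups named from the sample labels. Per the study's methods and the labels, reads were cut to 50 bp and aligned by TopHat2 2.1.1 (genome mm9), and the authors computed FPKM values from unique reads with Cufflinks 2.2.1 and scaled them by ERCC. The authors deposited 1 table of 23230 genes by 12 libraries. The ERCC factor of each library was recovered as the number that returns its values to 6 significant digits.

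The 11502 genes that reached 1 FPKM in any library were fitted with limma 3.58.1 in R 4.3.3 on log2(FPKM + 1). The model had 6 group terms, used the 12 libraries together and moderated variances along an intensity trend. P-values were adjusted by Benjamini-Hochberg over all genes and called under 0.05. The added 1 FPKM understates the change of low genes. Folds are ratios of group means, each set to at least 1 FPKM. The fit was tested on simulated data. Nothing says that the 2 libraries of a group came from separate females, so p-values measure the spread between these libraries.

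Kinesins with a group mean of at least 5 FPKM, or called between genotypes, are named with values (23 genes). Motors named apart from these were chosen after their values were seen. Members and lists were chosen with earlier results of these data known. Motifs were searched in the GENCODE M1 annotation of mm9. The alternatives tried were no ERCC scaling, median scaling, a pseudocount of 0.1 FPKM, no filter, a mean of at least 5 FPKM, a replicate block, 1 stage alone, and leaving out each library, Kif23 or Kif17.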

Additional observations from a re-analysis of the deposited data

Results flagged for a closer look

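The effect of Zar1/2 loss differed between GV and MII oocytes in 9 kinesins, by the limma test of the difference itself with Benjamini-Hochberg adjustment over all genes. Expressed as the change from GV to MII in Zar1/2-null oocytes minus that in WT oocytes, the log2 values were 3.17 for Kif17 (adjusted p = 1.12e-05), 1.19 for Kif20a (0.0199), 1.00 for Kif4 (0.00628), 0.86 for Kif3a (0.0280), 0.67 for Kifc3 (0.0499), 0.63 for Kif3b (0.0150), 0.62 for Kif11 (0.0279), 0.59 for Kif16b (0.0412) and 0.56 for Kif27 (0.0365). These 9 of 26 kinesins were positive, as were 33.9% of all genes by the same test, and the median over all 11502 genes was 0.48. Kif17 is the 1 gene of these called without ERCC factors (2.76). Kif16b and Kifc3 kept their calls under only 4 and 3 of 17 alternatives. Kif27 was tested only because WT growing replicate 2 passed the filter. Kif17, Kif20a and Kif4 were higher in the null at MII. Kif11, Kif3b, Kif16b and Kif27 were lower in the null at GV, and Kif3a and Kifc3 did not pass at either stage alone. At MII Kif11 was at 4.02 and 4.12 FPKM in WT against 2.76 and 3.03 FPKM in the null (adjusted p = 0.0504, limma). Without ERCC factors Kif11 (-0.68) and Kif3b (-0.76) were called lower at MII.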

How the results depend on the processing

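The depth behind single FPKM values is unknown, 2 libraries a group give no usable spread of their own, and the ERCC factors set many directions in maturation. Median scaling and the share without Kif17 were chosen after seeing the data. Kif17 at MII, its difference in maturation, the WT fall of Kif17, Kif22, Kif9, Kif18b and Kif27, the lower Kif11, Kif1b and Kif3b at GV, Kif1b at MII, Kif5c in growing oocytes and the growth fall of Kif2c kept their calls under every alternative that gave a value. Kif27 gave no value without WT growing replicate 2, the library that admitted it to the test. The cause of the changes below was not tested.

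Without ERCC scaling, kinesins lower in the null numbered 2 in growing, 4 in GV and 10 in MII oocytes, 1 was lower in WT growth, and 6 rose and 8 fell in WT maturation. The difference in maturation was then higher in 1 and lower in 1. Beside these, 11.7% of all genes were lower in growing, 13.1% in GV and 22.7% in MII oocytes, and 3% in WT growth. In WT maturation 19.2% rose and 46.1% fell, and the difference was higher in 14.3% and lower in 6.17%. With median scaling, 3 kinesins were lower in growing oocytes (against 12.1% of all genes), and 1 was higher and 4 lower at GV (against 9.11% and 8.79%). At MII 2 were higher and 16 lower (against 23.7% and 29.7%), and 1 was lower in WT growth (against 2.08%). In WT maturation 16 rose and 4 fell (against 41.9% and 30.2%), and the difference was higher in 1 and lower in 4 (against 13.1% and 14.6%). Shares of all genes are not given for the alternatives that follow. With a pseudocount of 0.1 FPKM, 5 were lower in growing and 7 in MII oocytes. Without a filter, 1 was higher at GV and 2 were lower at MII. With the 4 GV libraries alone, 9 were lower.

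Leaving out each library in turn gave 2 to 9 lower and 0 to 1 higher in growing, 6 to 16 lower at GV, 2 to 4 higher and 1 to 5 lower at MII, 1 to 9 lower in growth and 2 to 9 positive differences. The spindle minus transport median then ranged from -0.17 to 0.10 in growing, -0.093 to 0.16 in GV and -0.16 to 0.033 in MII oocytes.

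That median was 0.12 in growing and 0.13 in MII oocytes at a pseudocount of 0.1 FPKM, and 0.16 at MII with median scaling. It was -0.21 at GV and -0.70 at MII for members with a mean across all 12 libraries of at least 5 FPKM. In WT maturation it turned to 0.17 without ERCC scaling, 0.27 at the lower pseudocount and 0.62 for members with a mean of at least 5 FPKM. The MII share difference was -13.5 points without Kif23 and -0.11 without Kif17.

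Log2 fold changes of WT maturation that turned upward without ERCC scaling were 0.30 for Kif11, 0.093 for Kif13b, 0.17 for Kif15, 0.91 for Kif18a, 0.61 for Kif1b, 0.44 for Kif20a, 1.05 for Kif20b, 1.03 for Kif23, 0.47 for Kif2a, 0.79 for Kif5b, 0.29 for Kif5c and 0.040 for Kifc3. With median scaling they were 1.20 for Kif11, 0.22 for Kif13a, 0.70 for Kif13b, 0.53 for Kif14, 0.71 for Kif15, 0.21 for Kif16b, 1.84 for Kif18a, 1.46 for Kif1b, 1.35 for Kif20a, 1.98 for Kif20b, 1.98 for Kif23, 0.35 for Kif24, 1.40 for Kif2a, 0.12 for Kif2c, 0.57 for Kif3a, 0.66 for Kif3b, 0.19 for Kif4, 1.65 for Kif5b, 1.16 for Kif5c, 0.44 for Kifc1 and 0.92 for Kifc3. At GV, median scaling gave 0.065 for Kif4 and 0.0014 for Kif5c. The maturation difference of Kif11 was -0.057 without ERCC scaling, and with median scaling it was -0.33 for Kif11, -0.24 for Kif16b, -0.28 for Kif3b and -0.14 for Kifc3.

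With the replicate number as a block, 9 kinesins were lower in growing oocytes, 17 at GV and 4 at MII, where 5 were higher, and 9 differed in maturation. Kif27 in growing oocytes lost its call (adjusted p = 0.0508), and no other called kinesin did. Nothing in the labels ties same-numbered libraries together, but the ERCC factors do, since each replicate number appears scaled to its own WT growing library. The deviations of same-numbered libraries from the group means correlated by -0.12 to 0.16 (median 0.09, 15 pairs of groups).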
